A study of Mus musculus with 2 samples.

Results

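Gm37587, BC006965, Gm43050, 6430503K07Rik and Pax6os1 are noncoding genes that lie beside 5 regulators of lineage choice, Sox17, Sox9, Tbx5, Nkx2-2 and Pax6. They were taken from a list of 110003 transcripts of mouse embryonic stem cells, from 5 windows of the mm9 genome, 1 around each regulator, and each was named by exon structure. A sixth noncoding gene named this way in the windows, Nkx2-2os, is not among the 5 and is described beside Nkx2-2. The windows held 59 transcripts, and the 5 noncoding genes are 5 of 3844 genes that could be named in the list by structure, of which 3292 are noncoding. The windows and genes were chosen with earlier results from the same list known, so the presence of these genes is a description and supports nothing.

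The RNA came from V6.5 cells, a line of pluripotent mouse embryonic stem cells kept on a layer of irradiated mouse embryonic fibroblasts. Both groups of the study are RNA from these cells, with no treatment named. One is polyadenylated RNA and the other is total RNA after removal of ribosomal RNA, with 1 strand-specific library each. The list does not separate the 2 libraries and holds no read counts, so the depth is unknown, there are no replicates, and no level, error or test can be given for a transcript. Whether a transcript was present in these libraries, in the fibroblasts or only in an earlier collection that entered the list cannot be told apart. None of 10 pluripotency markers and none of 10 fibroblast markers, all coding genes, was named in the list, so the labelled cell type could not be checked.

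In divergent transcription, RNA polymerase starts on both strands of a promoter region, and a noncoding RNA leaves in the direction opposite to that of the coding gene. Many genes for developmental transcription factors have such noncoding neighbours. Sox17 directs the formation of endoderm, Sox9 that of cartilage and testis, Tbx5 that of the heart and forelimb, Nkx2-2 that of the ventral neural tube and pancreatic islets, and Pax6 that of the eye, brain and islets. Embryonic stem cells have not yet taken any of these fates.

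The first exons of annotated forms of the 5 noncoding RNAs are shown, because the starts decide how each gene lies relative to its coding neighbour. The BC006965-201 exon is far from Sox9 and is shown because most BC006965 transcripts of the list begin there. Without read counts this is no measure of use. The 12-nt first exon of the 6430503K07Rik transcript of the list, described below, is not shown. They are from the GENCODE M21 transcripts on GRCm38, and describe the reference strain and not the V6.5 genome. Each was read for an annotated transcript that shares introns or both ends with a transcript of the list. In Gm37587, 2 starts were found, and the first exon of Gm37587-202 (chr1:4497474-4497654, plus strand) and the first 100 bases of Gm37587-201 (chr1:4496551-4496650, plus strand) have no capitals. In BC006965-205 (exons 1 to 3, chr11:112774299-112781976, minus strand) capitals mark exons 1 and 3. In exon 1 of BC006965-201 (chr11:112711082-112711356, minus strand) capitals mark the 71 bases that 13 transcripts of the list have in common. In exon 1 of Gm43050-201 (chr5:119831739-119831920, minus strand) they mark the 53 bases that are also exon 1 of Gm43050-202. In 6430503K07Rik-201 (exons 1 and 2, chr2:147187424-147187771, plus strand) they mark exon 2, and in exon 1 of Pax6os1-202 (chr2:105670236-105670330, minus strand) the 45 bases that are also exon 1 of Pax6os1-201.
Gm37587-202: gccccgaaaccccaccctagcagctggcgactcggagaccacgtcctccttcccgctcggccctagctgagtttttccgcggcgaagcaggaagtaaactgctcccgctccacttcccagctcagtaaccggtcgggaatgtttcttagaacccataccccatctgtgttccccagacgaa
Gm37587-201: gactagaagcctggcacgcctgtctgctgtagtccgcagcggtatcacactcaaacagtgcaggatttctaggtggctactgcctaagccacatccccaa
BC006965-205: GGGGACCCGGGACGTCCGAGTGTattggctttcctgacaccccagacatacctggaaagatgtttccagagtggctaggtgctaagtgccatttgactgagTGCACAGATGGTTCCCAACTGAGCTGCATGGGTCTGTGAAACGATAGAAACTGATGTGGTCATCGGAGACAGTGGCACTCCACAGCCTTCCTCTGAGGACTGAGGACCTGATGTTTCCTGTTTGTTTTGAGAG
BC006965-201: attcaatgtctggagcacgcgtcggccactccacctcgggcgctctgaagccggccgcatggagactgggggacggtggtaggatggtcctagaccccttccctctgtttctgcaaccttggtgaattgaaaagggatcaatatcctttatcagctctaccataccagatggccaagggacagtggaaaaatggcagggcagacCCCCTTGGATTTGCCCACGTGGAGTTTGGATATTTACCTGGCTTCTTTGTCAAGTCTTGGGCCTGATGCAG
Gm43050-201: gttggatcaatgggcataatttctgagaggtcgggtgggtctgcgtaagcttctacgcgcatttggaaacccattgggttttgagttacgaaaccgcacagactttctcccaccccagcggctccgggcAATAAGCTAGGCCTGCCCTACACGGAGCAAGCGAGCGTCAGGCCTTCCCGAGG
6430503K07Rik-201: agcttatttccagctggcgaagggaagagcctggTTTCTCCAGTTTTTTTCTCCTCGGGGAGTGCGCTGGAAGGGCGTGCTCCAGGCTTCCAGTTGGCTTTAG
Pax6os1-202: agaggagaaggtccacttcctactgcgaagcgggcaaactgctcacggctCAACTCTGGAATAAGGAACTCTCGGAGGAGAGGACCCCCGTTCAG

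The 59 transcripts were mostly on the strand of the noncoding gene. On that strand lay 53, and 6 lay on the strand of the coding gene. By window there were 3 at Sox17, 31 at Sox9, 4 at Tbx5, 6 at Nkx2-2 and 15 at Pax6. No transcript overlapped an annotated exon of Sox17, Sox9, Tbx5, Nkx2-2 or Pax6 on its own strand, and none of the 5 coding genes was matched. Most genes named in the list are noncoding (3292 of 3844), and none of the 10 pluripotency markers was named either. The absence of the 5 coding genes therefore says nothing about their activity in the cells. Spliced transcripts made up 34 of the 59 (57.6%), against 29.9% of the whole list. Nothing follows from this difference, because the windows were chosen around noncoding genes named by exon structure, which needs spliced transcripts. By window, spliced transcripts were 1 of 3 at Sox17, 20 of 31 at Sox9 and 4 of 4 at Tbx5. At Nkx2-2 they were 4 of 6, and at Pax6 5 of 15. Some share the same structure under different names, and each name is counted. Outside the windows, the closest transcript lay 4045 bp beyond the Sox9 window, and the closest to an edge on the inner side lay 239 bp from it, in the same window. By the prefix of the name, 48 of the 59 were U, 10 were FT and 1 was BROAD, with no WHITEHEAD.

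By exon structure, 22 of the 59 transcripts were matched to the 5 noncoding genes. All 22 have 3 exons or more and a run of intron, exon and intron lengths that GENCODE lists for 1 gene alone on that chromosome and strand. A further 5 shared an intron with one of the 5 genes but had no such run, and 2 were matched to Nkx2-2os, a longer noncoding gene beside Nkx2-2. The other 24 transcripts on the noncoding strand were 20 with a single exon and 4 spliced ones. All matched runs within a window gave 1 difference in position between mm9 and GRCm38. At Sox17 and at Tbx5 only 1 run was available, so there this count says nothing. Distances from a transcript of the list to an annotated start were counted from these shared splice sites, and assume equal sequence length in the 2 builds between splice site and start. Over all noncoding genes with a run of this kind, 62.8% had a matched transcript.

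Many of the matched transcripts had the same introns as annotated ones. Among the 22 matched to the 5 genes, 15 (68.2%) had the introns of an annotated transcript, against 74.6% over all matched noncoding genes, and in 10 (45.5%, against 49.5%) both ends also agreed within 2 nt. These shares were near those of all matched genes. Across prefixes, 6 of the 10 FT transcripts in the windows had a U transcript with the same introns and both ends within 2 nt (against 42.3% of all 11825 FT transcripts). Counts of transcripts below include both names of such a pair, which are not shown to be separate observations. Counts of intron chains hold each structure once.

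Gm37587 had 2 transcripts of quite different form, each starting just ahead of a different start of Sox17. U078538-1 (mm9 chr1:4487555-4489639, plus strand) has 3 exons of 181, 205 and 89 nt and spans 2085 bp. Its exons and both ends were those of Gm37587-202. FT326751 (mm9 chr1:4486632-4489459) is deposited as 3 touching blocks, which make a single exon of 2828 nt. Both of its ends were those of Gm37587-201, which the annotation calls a retained intron form. With 1 exon it cannot be matched by the rule and is not among the 22. Its start lies 923 bp before that of U078538-1, and exon 1 of Gm37587-202, printed above, begins at position 924 of Gm37587-201.

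Sox17 has 8 annotated starts spread over 3750 bp. U078538-1 begins 120 bp upstream of the outermost one, that of Sox17-206. FT326751 begins 138 bp upstream of the start of Sox17-201 but 206 bp past that of Sox17-208 and 803 bp past that of Sox17-206. Thus U078538-1 faces all 8 starts from outside the gene, while FT326751 begins inside the longer Sox17 forms and overlaps them. The third transcript of the window, U307561-1, is a single exon of 433 nt that begins 8066 bp past the outermost Sox17 start. That is beyond the 3′ end of Sox17, and it does not overlap the gene.

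BC006965 was the most complex of the 5, with 17 matched transcripts (14 U and 3 FT names) in 16 intron chains on mm9 chr11:112525239-112643290, minus strand. They span 118052 bp and contain 28 different introns, of which 27 are annotated for the gene and 14 occur in 1 transcript only. Exon numbers run from 3 to 6, with a median of 4, and lengths from 438 to 1971 nt, with a median of 960 nt. Of the 3292 matched noncoding genes, 14 have as many transcripts or more (0.43%), and 7 have as many introns or more (0.21%), BC006965 included in both. The median over these genes was 2 transcripts and 3 introns.

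The BC006965 transcripts began at 5 places, and 1 transcript reached the neighbourhood of Sox9. FT312153 has 6 exons of 23, 78, 133, 109, 144 and 807 nt and begins 248 bp upstream of the single annotated start of Sox9. It has the structure of BC006965-205, whose 23-nt first exon is the leading run of capitals printed above. Its nearest relative is U162720-13, with 5 exons, which lacks the 23-nt exon, has 101 nt in place of the 109-nt exon and begins 5586 bp from Sox9. U162720-15, also with 6 exons, begins 37943 bp away. The largest group holds 13 transcripts with 6 different starts within 211 bp, and these lie 70861 to 71072 bp from the Sox9 start. U162720-3 begins 110014 bp away. Only FT312153 meets the 2000 bp limit for a divergent start, so the divergent arrangement at Sox9 rests on 1 transcript and its 23-nt exon.

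The 13 transcripts of the largest group all use an exon that ends at the same splice site. They have its last 71 bases in common, shown as capitals in exon 1 of BC006965-201. In 10 of the 13 this exon is the first, and in 3 a short exon of 60 or 63 nt is spliced onto it. Further downstream, an exon of 144 nt and an exon of 212 nt lie 67 bp apart. Of the 17 transcripts, 9 have the 144-nt exon alone, 2 have the 212-nt exon alone, and 3 have both spliced together. U162720-11 keeps the 67 bp between them, in an exon of 423 nt, and 2 transcripts have neither. There are 14 different 3′ ends, over 54951 bp. An added count of any transcript with an annotated BC006965 intron gives 19, through U162720-14 and U203383-1, which begin 89194 and 105004 bp from Sox9.

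**Figure D1:**
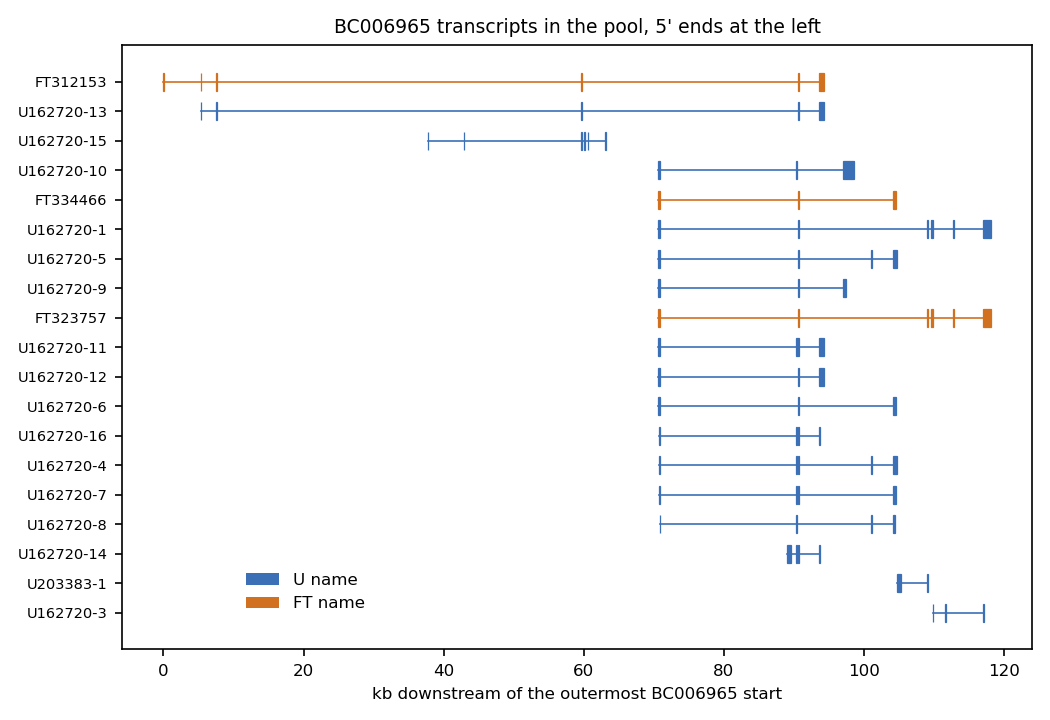
Exons (boxes) and introns (lines) of the 19 pool transcripts that share an intron with BC006965, on a scale of kb downstream of the outermost start, with U names in blue and FT names in orange. FT312153, at the top, is the transcript that begins 248 bp from Sox9, and 13 transcripts begin together about 71 kb from it.

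Other transcripts of the Sox9 window were single exons lying within the span of BC006965. On its strand there were 9, and 2 lay on the strand of Sox9, of 383 nt (U187747-1) and 99 nt (U287362-1). The longest were U236379-1 and FT35364, which cover the same 2363 bp and begin 15203 bp from the Sox9 start. U162720-2, with 2 exons of 310 and 150 nt, shares a name stem with the BC006965 transcripts and no annotated intron.

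At Tbx5, Gm43050 had 2 starts and 2 quite different 3′ parts. U026664-1 (mm9 chr5:120278457-120281929, minus strand) has 3 exons of 182, 74 and 82 nt, and its introns and ends are those of Gm43050-201. It begins 748 bp upstream of the outermost Tbx5 start, that of Tbx5-203. FT330311 has 2 exons of 53 and 698 nt and begins 877 bp from that start, 129 bp further away. It has the 111 bp intron of Gm43050-202, begins at the same base and runs on 100 nt further at the 3′ end. Both first exons end at the same base, so the 53 nt of FT330311 are the last bases of the 182-nt exon, in capitals above.

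The list also joined this start to distant exons. U026664-2 and U026664-3 begin at the same base as FT330311, share its 111 bp intron, and continue over an intron of 26039 bp to exons of 168 nt and then 324 or 477 nt. They run across the span of 1700021F13Rik, another noncoding gene of that strand, without overlapping its exons. They span 28053 bp each, where the annotated Gm43050 gene spans 3473 bp (GRCm38 chr5:119828448-119831920). Only U026664-1 was matched by the rule, and a count of any shared intron gives 4 transcripts. No other transcript of either strand overlapped the window, so no pool transcript lay on the strand of Tbx5 there.

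At Nkx2-2 the matched gene was small and began closer to the coding gene than its annotated form. U058616-1 (mm9 chr2:147012869-147014190, plus strand) has 4 exons of 12, 32, 69 and 420 nt and spans 1322 bp. Of its 3 introns, those of 245 and 263 bp are those of 6430503K07Rik-201, whose exons are 34, 69 and 373 nt long. The 281 bp intron and the 12-nt exon ahead of it are not annotated. They move the start 291 bp upstream of the annotated one, and the 3′ end lies 47 bp past the annotated end. An exon of 12 nt is short for an aligner to place, and its part in this result was not tested.

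Which Nkx2-2 start is used decides whether this pair is divergent. U058616-1 begins 729 bp upstream of the start of Nkx2-2-201 and 1032 bp upstream of that of Nkx2-2-203, both coding. It begins 7110 bp past the start of Nkx2-2-202, which the annotation lists as a processed transcript of the same gene. The 6430503K07Rik RNA thus lies outside the coding forms of Nkx2-2 and inside the span of the longer, noncoding forms, on the other strand.

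A longer RNA of the same strand began inside Nkx2-2 and not ahead of its coding forms. Nkx2-2os, which in mouse neural stem cells has been linked to oligodendrocyte formation, was matched by FT321617 and U002593-2, which are identical. Their 6 exons of 278, 166, 165, 199, 3178 and 359 nt span 147599 bp (mm9 chr2:147009819-147157417) and equal those of Nkx2-2os-201. They begin 2321 bp past the start of Nkx2-2-201. U002593-1 has exons of 51 and 114 nt, begins 6189 bp further upstream on that strand, and ends at the last base of the first Nkx2-2os exon. Of the matched noncoding genes, 100 span as much as Nkx2-2os or more (3.04%).

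At Pax6, 1 intron chain under 2 names made up Pax6os1. U023117-1 (mm9 chr2:105376236-105510487, minus strand) has 4 exons of 95, 99, 110 and 1161 nt and spans 134252 bp, and FT35699 differs from it only in a last exon 1 nt shorter. The introns are those of Pax6os1-202, and both begin at its annotated base. Introns of 71841, 13363 and 47583 bp make up nearly all of the span, while the RNA is 1465 nt long. Of the matched noncoding genes, 115 span as much or more (3.49%), and the median span was 13145.5 bp.

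Pax6os1 began inside Pax6 and not ahead of it. Its start lies 1430 bp past the outermost annotated Pax6 start, that of Pax6-206 and Pax6-207. The spans of the genes therefore overlap there, and exons were not compared across strands. The Pax6os1 start lies 1530 bp upstream of the next facing start, that of Pax6-208. Of the 24 annotated starts of Pax6, which spread over 23583 bp, 3 lie on the far side of the Pax6os1 start. The pair is divergent within 2000 bp by the Pax6-208 start alone.

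**Figure D2:**
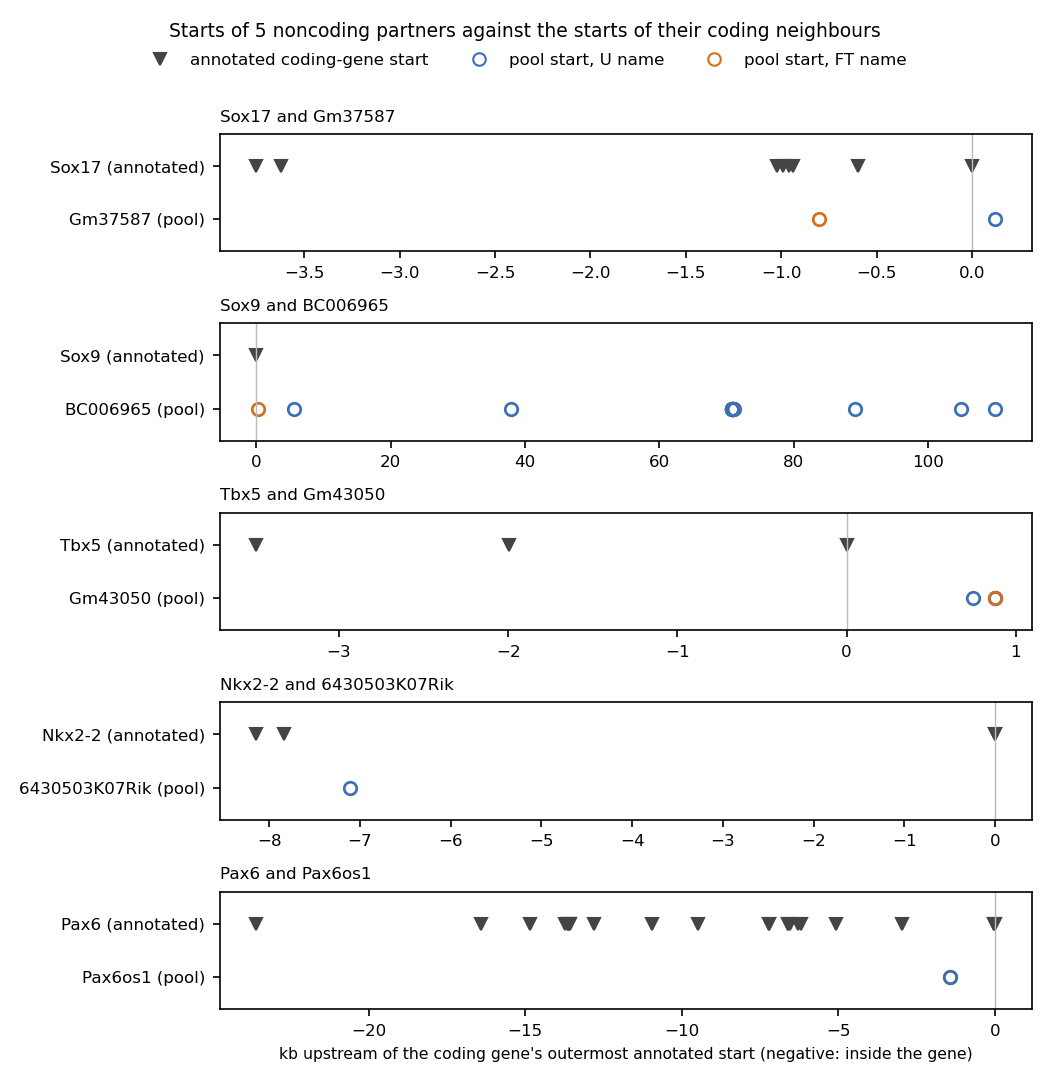
Start of each pool transcript that shares an intron or both ends with a noncoding partner (circles, U names blue, FT names orange) and each annotated start of its coding neighbour (triangles), in kb upstream of the outermost coding start. Gm43050 and BC006965 begin outside their neighbours, Gm37587 has 1 start on either side, and 6430503K07Rik and Pax6os1 begin inside the annotated gene.

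A further 3 transcripts within Pax6os1 lay where Paupar is annotated, a noncoding gene named here after its values were seen. In mouse neuroblastoma cells Paupar RNA acts with the PAX6 protein at neural genes. Paupar is annotated as a single exon of 3482 nt (GRCm38 chr2:105657862-105661343), so it could not be matched by structure. FT310451 (2831 nt) ends at its annotated 3′ base, U054540-1 (2833 nt) ends 2 nt beyond, and both begin 651 bp inside the annotated start. U248034-1 (601 nt) begins 83 bp inside that start and overlaps U054540-1 by 33 bp. Together they cover the annotated gene except for its first 83 bp.

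A second spliced antisense RNA lay within the Pax6 gene. FT320414 and U023119-1 (mm9 chr2:105511265-105514605, minus strand) both have exons of 152 and 2867 nt around an intron of 322 bp. They share no intron with an annotated gene of that strand and begin 5548 bp past the outermost Pax6 start. Their start also lies 661 bp upstream of that of Pax6-226, a processed transcript, and 743 bp upstream of that of Pax6-202, a coding form. By distance to any Pax6 start, they thus also lie within 2000 bp, and nearer than Pax6os1 with its 1530 bp. On the strand of Pax6 there were 4 transcripts, all upstream of the gene and all within the span of Pax6os1, which runs on the other strand. The nearest, U229366-1 (699 nt), ends 722 bp before the outermost Pax6 start, and U243774-1 (379 nt) ends 1477 bp before it. U172502-1 and the spliced BROAD34980 (exons of 113, 169 and 123 nt) end 16131 and 51282 bp before it.

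**Figure D3:**
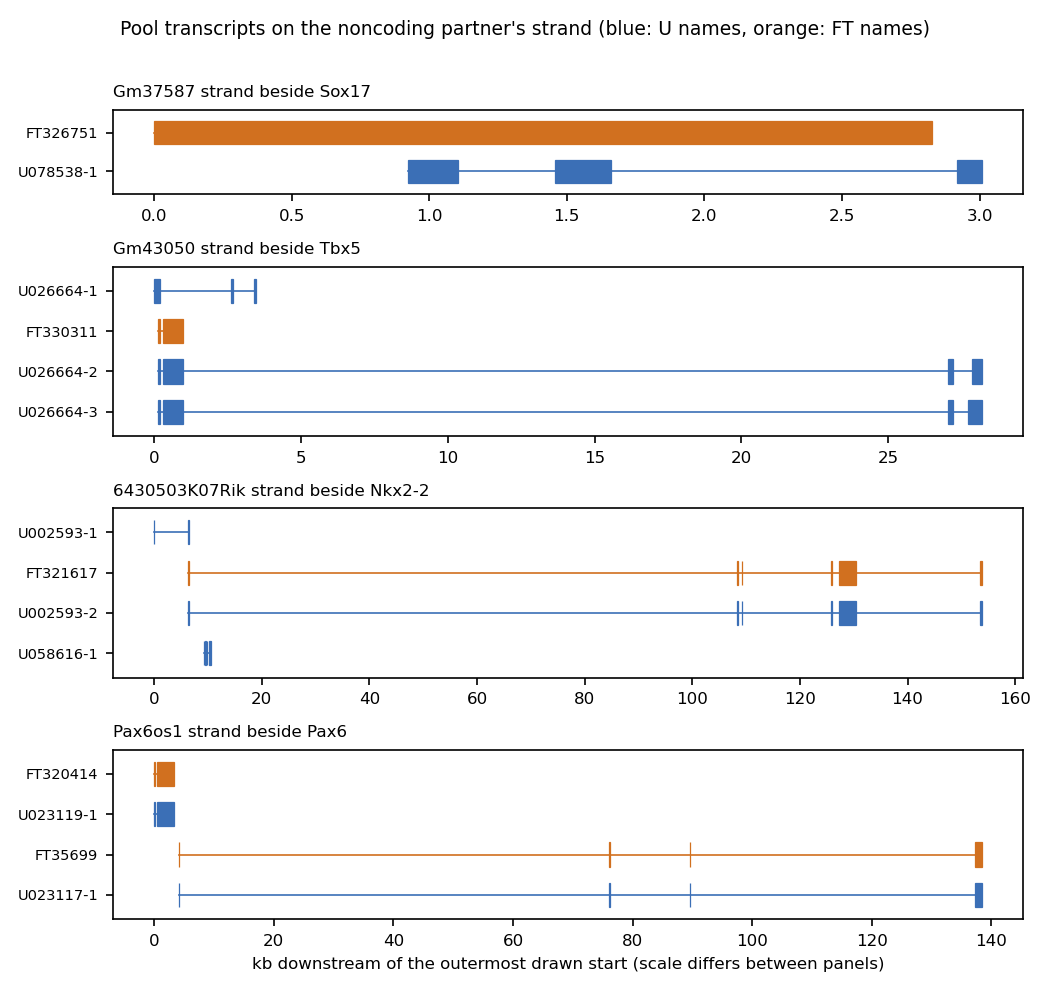
Exons (boxes) and introns (lines) of the spliced pool transcripts on the noncoding strand beside Sox17, Tbx5, Nkx2-2 and Pax6, with the single exon FT326751 at Sox17, on a separate kb scale per panel. Gm37587 is compact, while Nkx2-2os and Pax6os1 run over 147599 and 134252 bp.

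Set against all 3292 noncoding genes named by structure, 4 of the 5 were simple by their matched transcripts. Gm37587, Gm43050 and 6430503K07Rik had 1 matched transcript each, as did 33.1% of the genes, and Pax6os1 had 2, as did 42.5%. The median of the 5 was 1 transcript, against 2 over all these genes, and 4 exons, against 4. Spans of the matched transcripts fell into a short and a long group. 6430503K07Rik (1322 bp), Gm37587 (2085 bp) and Gm43050 (3473 bp) were shorter than the lower quartile of 6013 bp, while BC006965 (118052 bp) and Pax6os1 (134252 bp) were above the upper quartile of 29962 bp. The place of Gm43050 depends on the matching rule. Any shared intron gives it 4 transcripts, of which U026664-2 and U026664-3 span 28053 bp each, above the median of 13145.5 bp. The 5 genes were chosen by position, and no test of these differences applies.

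**Figure D4:**
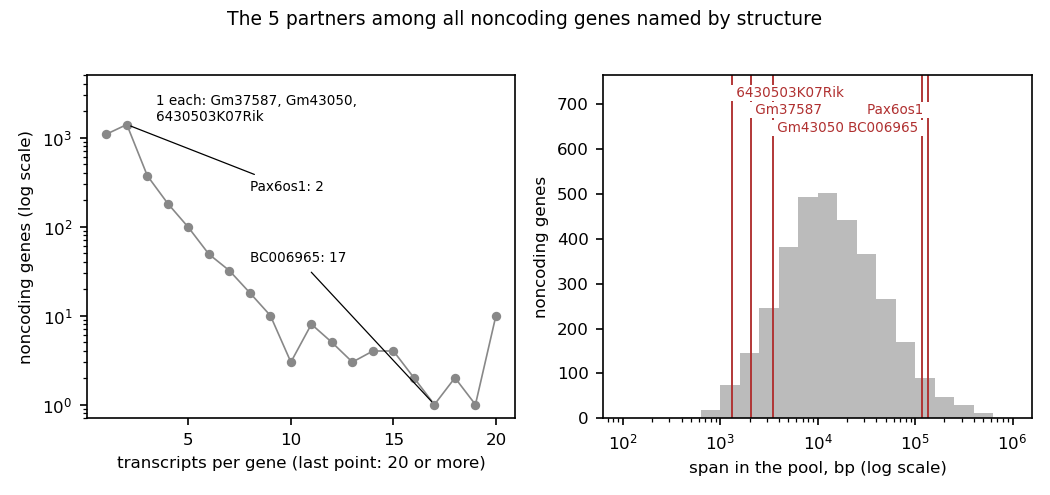
Left, number of matched noncoding genes (log scale) by transcripts per gene. Right, number of genes by span in bp (log scale), with the 5 partners as red lines: 3 partners lie below 4 kb and 2 above 100 kb. Only matched transcripts count, which leaves out the transcripts of 28053 bp at Gm43050.

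The promoter regions of 3 of the 5 are listed in RefSeq on GRCm38.p6, from 250 bases before the start to 50 after it, and are shown as the annotated starts, which are not in every case those of the list. Capitals mark the 50 bases after the RefSeq start. The list's only 6430503K07Rik transcript, U058616-1, begins 291 bp before the annotated start, so that region lies inside its span and is not the region ahead of its own start. They belong to BC006965 (chr11:112711307-112711606, minus strand, at the start of BC006965-201, within the group of 13), 6430503K07Rik (chr2:147187174-147187473, plus strand) and Pax6os1 (chr2:105670281-105670580, minus strand).
BC006965: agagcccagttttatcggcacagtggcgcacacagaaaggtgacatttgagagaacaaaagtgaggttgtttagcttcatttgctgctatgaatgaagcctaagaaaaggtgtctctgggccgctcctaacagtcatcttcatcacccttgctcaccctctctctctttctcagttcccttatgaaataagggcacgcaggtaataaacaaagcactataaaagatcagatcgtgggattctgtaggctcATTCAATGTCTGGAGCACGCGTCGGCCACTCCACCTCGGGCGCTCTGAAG
6430503K07Rik: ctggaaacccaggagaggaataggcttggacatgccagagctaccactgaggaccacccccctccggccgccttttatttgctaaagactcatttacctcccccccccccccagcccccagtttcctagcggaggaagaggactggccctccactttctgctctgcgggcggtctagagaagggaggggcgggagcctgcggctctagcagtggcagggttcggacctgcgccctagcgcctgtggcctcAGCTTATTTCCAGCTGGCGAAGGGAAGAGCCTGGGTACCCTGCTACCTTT
Pax6os1: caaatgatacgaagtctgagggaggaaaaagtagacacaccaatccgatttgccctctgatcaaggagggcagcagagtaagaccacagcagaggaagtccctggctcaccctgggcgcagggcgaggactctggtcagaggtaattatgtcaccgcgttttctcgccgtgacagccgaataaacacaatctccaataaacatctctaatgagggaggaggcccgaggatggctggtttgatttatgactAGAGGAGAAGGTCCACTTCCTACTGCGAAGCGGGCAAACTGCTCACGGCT

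The 3 regions had more CG dinucleotides than the median promoter. BC006965 had 10, 6430503K07Rik 11 and Pax6os1 13, against a median of 7 over 32851 RefSeq promoters, and 56.5%, 58.6% and 62.1% of promoters had fewer. G and C made up 48.0%, 62.0% and 52.3% of bases, against a median of 52.7%. The letters TATAAA were searched on both strands. They are in the BC006965 region, on its own strand, beginning 34 bases before the start, and not in the other two, while 13.6% of all promoters hold them.

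The RNA ends and reading frames of the annotated forms were described in the same way. Among the 17 annotated transcripts with the structure of a pool transcript, Nkx2-2os-201 included and 6430503K07Rik-201 added, 9 have AATAAA or ATTAAA in their last 40 bases, or 8 of 16 without Nkx2-2os-201, against 37.4% of 18930 annotated transcripts of noncoding genes. Most of these transcripts are forms of BC006965. Of them, BC006965-203, BC006965-205 and BC006965-217 end at nearly the same base, so their AATAAA is counted more than once. The shares are therefore not like for like. Gm37587-202, Pax6os1-202 and BC006965-205 have AATAAA, and Gm43050-201 has ATTAAA. Neither is found in Gm37587-201 or 6430503K07Rik-201. Among the 17, the longest frame from ATG to a stop runs from 12 codons in Gm43050-201 to 111 in BC006965-209. The median over the 18930 annotated transcripts of noncoding genes was 61 codons.

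Over a list of 40 lineage regulators, the 5 coding genes were among 10 whose divergent noncoding neighbour was matched in the list, against 2.66% of 21924 protein-coding genes. A divergent gene here has an annotated start at most 2000 bp upstream of any start of the coding gene, on the other strand. The 5 genes were put on the list with their partners known, and without them the count is 5 of 35 (14.3%). The other list genes were also chosen with earlier results known, so neither count is independent evidence. The annotation alone differed too. A divergent noncoding gene is annotated for 17 of the 40 (42.5%), against 7.77% of all protein-coding genes. For 12 of the 40 it could be matched by structure, against 3.68%. Both annotation counts include the 5 genes of the windows, put on the list with their partners known. These counts are therefore not independent evidence either. The 5 genes beyond those of the windows were Evx1, a homeobox gene of the posterior embryo, with Evx1os (47 bp), Hand2, needed for the heart and limb, with Hand2os1 (124 bp), Lhx1, needed for the head and kidney, with Lhx1os (125 bp), Tbx2, a T-box repressor, with 2610027K06Rik (328 bp), and Otx2, needed for the forebrain, with Otx2os1 (1064 bp). They had 3 to 5 matched transcripts each. With only the outermost start of each coding and each noncoding gene counted, 4 of the 40 had one, Sox9, Tbx5, Tbx2 and Lhx1. Sox17, Nkx2-2 and Pax6 were not among them. At Sox17 the outermost noncoding start is that of Gm37587-201, 803 bp past the outermost Sox17 start. Gm37587-202, the form with the matched transcript, begins 120 bp upstream of that Sox17 start. The share of all protein-coding genes by this stricter rule was not counted. The 2.66% is for any start and cannot be set beside it.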

How the data were processed

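Per the labels' protocols, 1 polyadenylated and 1 rRNA-depleted RNA sample of V6.5 cells were sequenced, each as a strand-specific dUTP library. TopHat and mm9 are named in the submitters' processing notes. How transcripts were assembled, and what the name prefixes mean, is not stated by labels or headers. The authors deposited 1 list in BED format, with positions and blocks of each transcript. Its score column, deposited by the authors as whole numbers, was not used.

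Blocks with gaps under 30 bp were joined. Matching to GENCODE M21 (GRCm38) used, for transcripts of 3 or more exons, runs of intron, exon and intron lengths, and for 2-exon transcripts an intron in the same place as one already matched. The match was tested on simulated data. No coordinate was converted between builds. Positions are 1-based. Python 3.11.15 was used.

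The members, windows and lists were chosen with earlier results of these data known. Named in the text are the members, their coding neighbours, other genes matched in the windows, and list genes with a divergent partner found. Paupar and 1700021F13Rik fall outside this rule and were chosen after their values were seen. No statistical test was made, since there is 1 pooled list without counts or replicates. Alternatives changed joining, matching, prefixes, windows and start distance.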

Additional observations from a re-analysis of the deposited data

How the results depend on the processing

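Of the counts of matched transcripts, intron chains and starts, those that depend on the name prefix changed most. Without U names, Gm37587, Gm43050 and 6430503K07Rik had 0 transcripts, 0 chains and 0 starts, Pax6os1 had 1 transcript, and BC006965 had 3 of each. The windows then held 1 transcript at Sox17, 4 at Sox9, 1 at Tbx5, 1 at Nkx2-2 and 4 at Pax6. With U names alone, Pax6os1 had 1 transcript. When every intron had to be listed for the gene, 6430503K07Rik had 0 transcripts, 0 chains and 0 starts, because its first intron is not annotated. Joining starts within 50 bp left BC006965 with 6 starts. Only 2 transcripts lay wholly inside the Tbx5 window. Counting any shared intron, an alternative chosen after seeing the data, gave Gm43050 4 transcripts, 4 chains and 2 starts. With only the outermost start of each gene, 4 of 40 lineage regulators had a divergent partner, with no count over all genes by that rule. The remaining 109 recomputed values stayed within 1.5 times the reported ones. They include the count with annotated starts at most 1000 bp apart, where 7 of 40 lineage regulators had a divergent partner. Nkx2-2 (1020 bp), Otx2 (1064 bp) and Pax6 (1530 bp) lie beyond that limit. No paired analysis was possible because the list holds no values per sample. With no counts, a transcript that is absent from the list is not shown to be absent from the cells.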
